A study of Rattus norvegicus with 8 samples.

Results

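The genes followed here encode the signalling chains of the T cell receptor, the receptors that act beside it, its proximal signalling proteins and the transcription factors that define T cells. They were chosen by gene symbol, 38 in all, and 36 of them were among the 17446 genes of the counts, while Tcf7 and Themis had no row there. RNA of whole blood from male Wistar rats was sequenced, and the rats were 12 to 14 weeks old at the start. In the AngII group, hypertension was induced with angiotensin II at 0.4 mg/kg/day from an implanted minipump, and blood was taken at week 1 (before) and at week 5 (after). In the DOCA–HS group, deoxycorticosterone acetate was given weekly at 100 mg/kg with 0.9% NaCl and 1% KCl as drinking solution, with blood sampled at week 3 (before) and at week 7 (after). Between those time points, both groups received Chios mastic gum (CMG), a plant resin, at 220 mg/kg daily by gavage for 4 weeks. Each of the 4 groups had 2 libraries. No library of a control group was analysed here, so a difference between after and before also holds 4 further weeks of the model. The labels do not say whether libraries came from separate rats, and p-values then measure only the spread between these libraries.

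As background, the T cell receptor recognises peptides on other cells but cannot signal alone, and its signal is passed by the CD3 and zeta chains. The kinase Lck, held near the receptor by the co-receptors CD4 and CD8, phosphorylates these chains, after which adaptors such as Lat gather the enzymes that release second messengers. Costimulatory and inhibitory receptors set the strength of the response, and in blood these genes mark circulating T cells, although several are shared with natural killer cells, B cells, monocytes or platelets. In whole blood, fewer T cells and less RNA per T cell cannot be told apart.

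The libraries held between 4149104 and 13205565 counts, of which 61.9% to 84.3% fell on 2 hemoglobin genes, and between 851 and 17173 counts fell on the members. Of the 8 libraries, DOCA–HS after replicate 2 stood apart, with the lowest total, the highest hemoglobin share and 22 of the 36 members at 10 or more counts, against 33 to 36 in the others. It was the one library with members at 0 counts, namely Cd4, Cd5, Cd28, Ubash3a, Ctla4 and Rasgrp1. There, a count of 0 allows up to 2.11 normalized CPM (3 counts, counting error only), against 0.166 to 0.507 in the others. Normalized CPM are counts scaled to the library total after its multiplication by a TMM factor, on 1 scale for all 8 libraries. Over the members, the log2 difference between the 2 libraries of a group had an SD of 0.50 and 0.52 in the AngII group before and after CMG, of 0.39 in the DOCA–HS group before CMG and of 1.97 after it. The counts and most medians of the DOCA–HS model and of the average change are therefore also given without it, as are the changes of several genes. Libraries within each group differed by more than counting error.

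The genes of 3 of the CD3 chains, Cd3g, Cd3d and Cd3e, are neighbours in the rat genome, and their promoters are shown because these genes are the anchor of the results. Of the 38 symbols, 29 had a promoter in RefSeq (GRCr8 assembly, 250 bases before to 50 after the gene start). In the sequences, capitals mark the letters AGGAAG or, on the other strand, CTTCCT, a core that transcription factors of the ETS family bind. The promoter of Cd3g is at chr8:54183869-54184168 (minus strand), that of Cd3d at chr8:54185269-54185568 (plus strand) and that of Cd3e at chr8:54211721-54212020 (minus strand).
Cd3g: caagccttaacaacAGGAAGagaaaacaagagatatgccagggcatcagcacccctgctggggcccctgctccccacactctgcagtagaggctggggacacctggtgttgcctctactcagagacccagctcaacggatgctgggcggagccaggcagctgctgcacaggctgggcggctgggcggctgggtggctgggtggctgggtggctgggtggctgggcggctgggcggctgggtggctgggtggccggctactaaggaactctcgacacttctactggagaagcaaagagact
Cd3d: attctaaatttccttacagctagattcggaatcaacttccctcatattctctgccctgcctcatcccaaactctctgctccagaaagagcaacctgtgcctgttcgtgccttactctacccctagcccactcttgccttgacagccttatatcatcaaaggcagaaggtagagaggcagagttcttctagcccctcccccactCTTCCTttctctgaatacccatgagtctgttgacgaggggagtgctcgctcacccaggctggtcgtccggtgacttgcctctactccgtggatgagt
Cd3e: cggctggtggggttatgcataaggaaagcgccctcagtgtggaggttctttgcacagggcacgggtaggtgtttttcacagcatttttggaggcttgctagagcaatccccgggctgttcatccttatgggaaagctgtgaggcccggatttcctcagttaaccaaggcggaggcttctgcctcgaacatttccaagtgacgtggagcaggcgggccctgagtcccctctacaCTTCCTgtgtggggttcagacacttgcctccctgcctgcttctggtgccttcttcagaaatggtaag
Each of these promoters held the ETS letters once. Over the members, 14 of 29 promoters (48.3%) held them on either strand, against 34.3% of 27457 promoters of the same length. The RUNX letters TGTGGT were in 27.6% of the members' promoters and in 16.9% of all, the GATA letters AGATAA in 13.8% and 11.3%, and the TCF/LEF letters CTTTGA in 20.7% and 15.9%. The letters TATAAA were in 13.8% and 14.3%, and the CRE letters TGACGTCA were in 0 of the members' promoters and in 1.91% of all. These are matches of letters, and no binding was measured.

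Across the members, most genes lay lower after CMG than before it. In the average over both models, the largest differences below 0 were those of Ctla4, Gata3, Icos, Satb1, Cd27 and Cd3e. The CD3 and zeta chains had a median log2 fold change of −0.66 under AngII and of −0.24 under DOCA–HS. Il2rb, which encodes the beta chain of the IL2 and IL15 receptors, went the other way in both models. By the criterion of the study (a log2 fold change past 1.5 up or down, with an unadjusted p of 0.05 or less), 0 of 35 members tested were called under AngII, where 1.24% of all genes were. Under DOCA–HS it called 0 of 35, against 2.05% of all genes. In a fit of the average change over both models, 1 of 36 members was called, Ctla4, against 0.325% of all genes. No gene of any kind reached an adjusted p under 0.05 (Benjamini-Hochberg over all genes tested) in these fits (edgeR's quasi-likelihood test), and the lowest among the members was 0.628 under AngII, 0.997 under DOCA–HS and 0.9996 in the average change. Below, a gene is said to have risen or fallen where its unadjusted p was 0.05 or less.

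Under AngII, the median log2 fold change of the 35 members tested was −0.11, against −0.01 over all genes, and 22 of them lay below 0. Under DOCA–HS the median was −0.41 against −0.04, and 31 of 35 lay below 0. Leaving out its after replicate 2 gave −0.46 against −0.02, with 30 of 36 below 0. For the average change it was −0.31 against 0.03, with 28 of 36 members (77.8%) below 0, against 47.0% of all genes, and without that library it was −0.22 against 0.01, with 26 of 36 (72.2%) below 0 against 48.9%. The scaling of the libraries mattered for the AngII model, where per library totals the members' median was 0.24 and that of all genes 0.36, so that the members lay above 0 but 0.12 below the genes at large. Per library totals, the members' median was −1.14 against −0.76 over all genes under DOCA–HS and −0.46 against −0.15 in the average change. Relative to all genes, the members were lower after CMG under each of these scalings. A scaling moves all genes of a library alike, so this distance could hardly change and is not a separate check.

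At an unadjusted p of 0.05 or less and without a fold threshold, 2 members fell under AngII, Cd3g and Cd3d, and 1 rose, Il2rb, which are 5.71% and 2.86% of those tested. Over all genes of that model, 1.61% fell and 5.04% rose. Under DOCA–HS Icos and Gata3 fell, 5.71% of the members against 0.44% of all genes, and 0 members rose, against 2.73%. These calls were lost with DESeq2 (unadjusted p = 0.123 for Icos and 0.168 for Gata3), per library totals (unadjusted p = 0.192 and 0.198, edgeR) and per totals outside hemoglobin (unadjusted p = 0.067 and 0.0765, edgeR), and 0 members fell in these fits. They were lost as well without DOCA–HS before replicate 1 (unadjusted p = 0.239 and 0.452, edgeR) or before replicate 2 (unadjusted p = 0.218 and 0.179, edgeR), again with 0 members that fell. With its after replicate 2 left out, 6 members fell in that model (Cd3d, Cd3g, Cd6, Gata3, Icos and Lef1), 16.7% against 2.94% of all genes, and 0 rose, against 6.48%. Without after replicate 1, 11 fell, 31.4% against 16.8%, with Icos and Gata3 not among them.

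In the average change, 6 of 36 members fell (Satb1, Ctla4, Gata3, Icos, Cd3e and Cd27), which is 16.7% against 1.63% of all genes, and Il2rb alone rose, 2.78% against 2.28%. Without DOCA–HS after replicate 2, 14 members fell in the average change, where 4.24% of all genes fell, and Il2rb rose, where 5.21% of all genes rose. The 14 were Bcl11b, Cd2, Cd247, Cd27, Cd3d, Cd3e, Cd3g, Cd6, Ctla4, Gata3, Icos, Lat, Satb1 and Skap1. With another library left out the count was 2 to 6. It was 2 (5.56%) without AngII after replicate 1 or DOCA–HS before replicate 1, against 0.837% and 1.04% of all genes. It was 3 (8.33%) without AngII before replicate 1, against 1.45%. Without AngII before replicate 2, DOCA–HS before replicate 2 or DOCA–HS after replicate 1 it was 4 (11.1%), against 0.883%, 1.06% and 1.59%. The count was 6 (16.7%) without AngII after replicate 2, against 2.91%. Per library totals, or per totals outside hemoglobin, 1 member fell in the average change, Ctla4, 2.78% against 0.4% and 0.413% of all genes. On these scalings 0 members rose, against 0.0625% and 0.663%. Under AngII both of these scalings gave 0 members that fell, against 0.361% and 0.333% of all genes, and 3 that rose, Cd4, Il2rb and Txk, which is 8.57% against 7.14% and 7.85%. The fall of Cd3d under AngII was lost with DESeq2 (unadjusted p = 0.0823), and those of Cd3d and Cd3g were lost with all 8 libraries in 1 fit (unadjusted p = 0.0834 and 0.0557, edgeR). With 1 AngII library left out the p-values were 0.0103 to 0.153 for Cd3d, 0.0217 to 0.0927 for Cd3g and 0.0108 to 0.118 for Il2rb (edgeR).

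**Figure D1:**
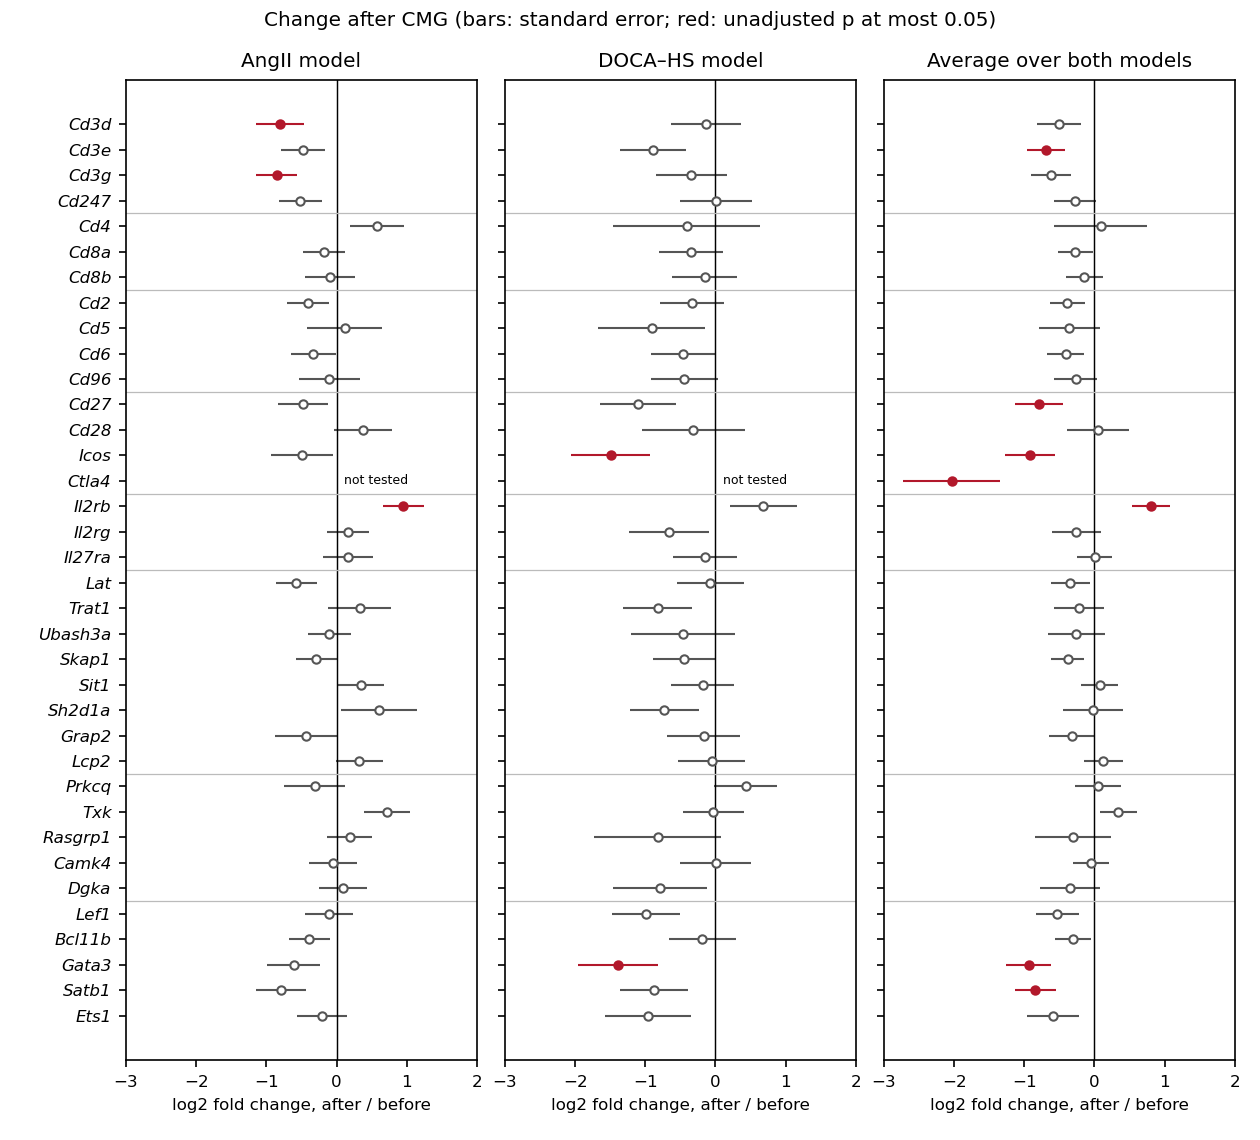
Log2 fold change after against before CMG (horizontal axis) of each member (rows, grouped by role with grey lines) for AngII, DOCA–HS and the average over both. Points are edgeR estimates with standard errors, and red marks an unadjusted p of 0.05 or less; 28 of 36 points lie left of 0 in the average, and Il2rb is the red point to the right.

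The expression of the members in single libraries is compared here in normalized CPM, without a model but on the TMM scale. Genes without overlap were not counted on another scaling. As CPM of the total counts, the summed members overlapped between before and after CMG in both models. They were at 955 and 733 before and 747 and 1091 after CMG under AngII, and at 1783 and 1003 before and 1044 and 205 after CMG under DOCA–HS. Under AngII, both after libraries lay below both before libraries for 11 of 35 members, 31.4% against 18.5% of all genes, and above them for 3, Cd4, Il2rb and Txk, 8.57% against 21.3%. Under DOCA–HS 16 of 35 lay lower without overlap, 45.7% against 21.1%, and 2 lay higher, Il2rb and Prkcq, 5.71% against 14.7%. With after replicate 1 alone on the after side, 25 of 36 lay below both before libraries, 69.4% against 35.4% of all genes, and 4 above them, Cd4, Il2rb, Lcp2 and Prkcq, 11.1% against 33.9%. Cd27, Cd3e, Gata3, Satb1 and Skap1 lay lower in both models, 13.9% of the members against 4.19% of all genes, and Il2rb lay higher in both, against 2.3%. Cd27, Cd3e and Satb1 lay lower in all 4 after libraries than in all 4 before libraries, 8.33% against 2.45%, and Il2rb lay above in the same sense, 2.78% against 1.28%. Over 3 after libraries, leaving out DOCA–HS after replicate 2, 10 members lay below the 4 before libraries (Bcl11b, Cd2, Cd247, Cd27, Cd3d, Cd3e, Cd3g, Lat, Satb1 and Skap1), 27.8% against 4.32%, and Il2rb above them, against 5.27%. No member moved in opposite directions in the models without overlap, against 5.39% of all genes.

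**Figure D2:**
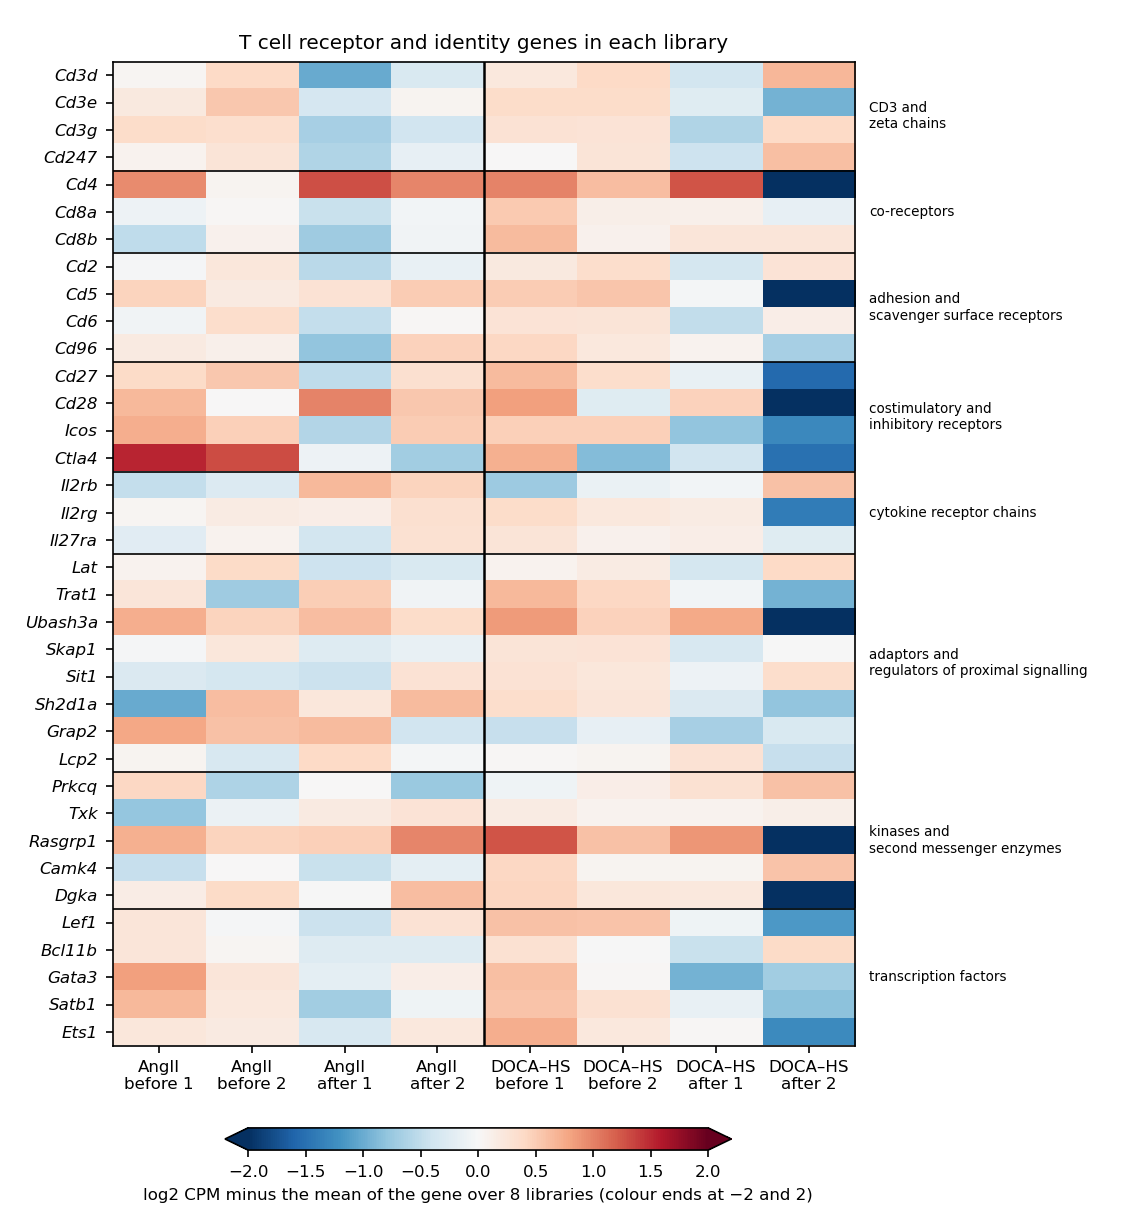
Log2 CPM of each member (rows, by role) in each library (columns), minus the gene's mean over the 8 libraries; red is above and blue below that mean, and the colour scale ends at −2 and 2. Cd3e, Cd27 and Satb1 are lower in the 4 after libraries than in the before libraries, Il2rb is higher, and the darkest cells are in DOCA–HS after replicate 2.

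The CD3 and zeta chains, Cd3e, Cd3d, Cd3g and Cd247, carry the signalling motifs of the receptor. All 4 had log2 fold changes below 0 under AngII, with a median of −0.66, and in the average change, with a median of −0.56. For DOCA–HS it was −0.24, or −0.64 if after replicate 2 is left out. Cd3e, the epsilon chain, was at 31.1 and 39.9 normalized CPM before and at 21.6 and 28.2 after CMG under AngII. Under DOCA–HS it was at 35.2 and 35.3 before and at 23.1 and 14.1 after CMG. All 4 after libraries were thus below all 4 before libraries. The log2 fold change of Cd3e was −0.48 (standard error 0.31, unadjusted p = 0.162) under AngII and −0.89 (standard error 0.47, unadjusted p = 0.0942) under DOCA–HS. For the average change it was −0.69 (standard error 0.27, unadjusted p = 0.0272, adjusted p = 0.9996, edgeR). Without DOCA–HS after replicate 2 it was −0.55 (unadjusted p = 0.0198, edgeR). Per library totals it was −0.77 in the average change (unadjusted p = 0.205, edgeR) and −0.06 under AngII (unadjusted p = 0.88, edgeR), where all genes lay at 0.36.

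Cd3g, the gamma chain, was at 27.7 and 26.9 normalized CPM before and at 13.4 and 16.3 after CMG under AngII. Under DOCA–HS it was at 25.98 and 25.8 before and at 13.9 and 28.1 after CMG. The after libraries of the AngII model and DOCA–HS after replicate 1 were close to each other and below the 4 before libraries, while DOCA–HS after replicate 2 was the highest of all. Cd3g fell under AngII by a log2 fold change of −0.85 (standard error 0.30, unadjusted p = 0.0203, adjusted p = 0.631, edgeR). Under DOCA–HS the log2 fold change was −0.34 (unadjusted p = 0.514, edgeR), and it was −0.88 without after replicate 2 (unadjusted p = 0.00929, edgeR) and 0.12 without after replicate 1. Cd3d, the delta chain, was at 13.1 and 16.9 before and at 6.24 and 10.4 after CMG under AngII, where it fell by a log2 fold change of −0.81 (standard error 0.34, unadjusted p = 0.0447, adjusted p = 0.739, edgeR). Under DOCA–HS Cd3d was at 14.8 and 16.9 before and at 9.84 and 20.4 after CMG, with a log2 fold change of −0.13. Leaving out after replicate 2 gave −0.67 (unadjusted p = 0.0436, edgeR) and leaving out after replicate 1 gave 0.37. Per library totals, the log2 fold changes of Cd3g and Cd3d under AngII were −0.46 and −0.37, with p-values of 0.311 and 0.466 (edgeR). Cd247, the zeta chain, which natural killer cells also use, was at 28.3 and 32.1 before and at 17.6 and 23.9 after CMG under AngII, and at 27.1 and 32.4 before and 20.2 and 40.8 after CMG under DOCA–HS. Its groups were apart under AngII and overlapped under DOCA–HS.

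Ratios of the counts of 2 genes within a library do not depend on its scaling, and the pairs given here were chosen after their values were seen and are described without a test. The ratio of Cd3d to Cd3e lay between 0.289 and 0.479 in 7 libraries and was 1.45 in DOCA–HS after replicate 2 (29 and 20 counts, 95% interval of counting error 0.793 to 2.70, exact binomial). Cd3g to Cd3e lay between 0.577 and 0.889 in the 7 libraries and was 2 there (interval 1.14 to 3.61). Cd247 to Cd3e lay between 0.770 and 0.919 and was 2.9 there (interval 1.72 to 5.09). All 3 ratios were thus highest in DOCA–HS after replicate 2, where Cd3e was low and the other chains were not. Among the other 7 libraries, Cd3g to Cd3e was 0.889, 0.674, 0.739 and 0.732 in the before libraries and lower, at 0.622, 0.577 and 0.603, in the after libraries. Within a model, its counting intervals were apart between AngII before replicate 1 (0.768 to 1.03) and AngII after replicate 2 (0.487 to 0.683). Among these 7 libraries, the intervals of every other pair of a before and an after library of the same model overlapped. DOCA–HS after replicate 2 also had a share of hemoglobin counts of 84.3%, and the part of its low depth in these ratios was not tested.

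**Figure D3:**
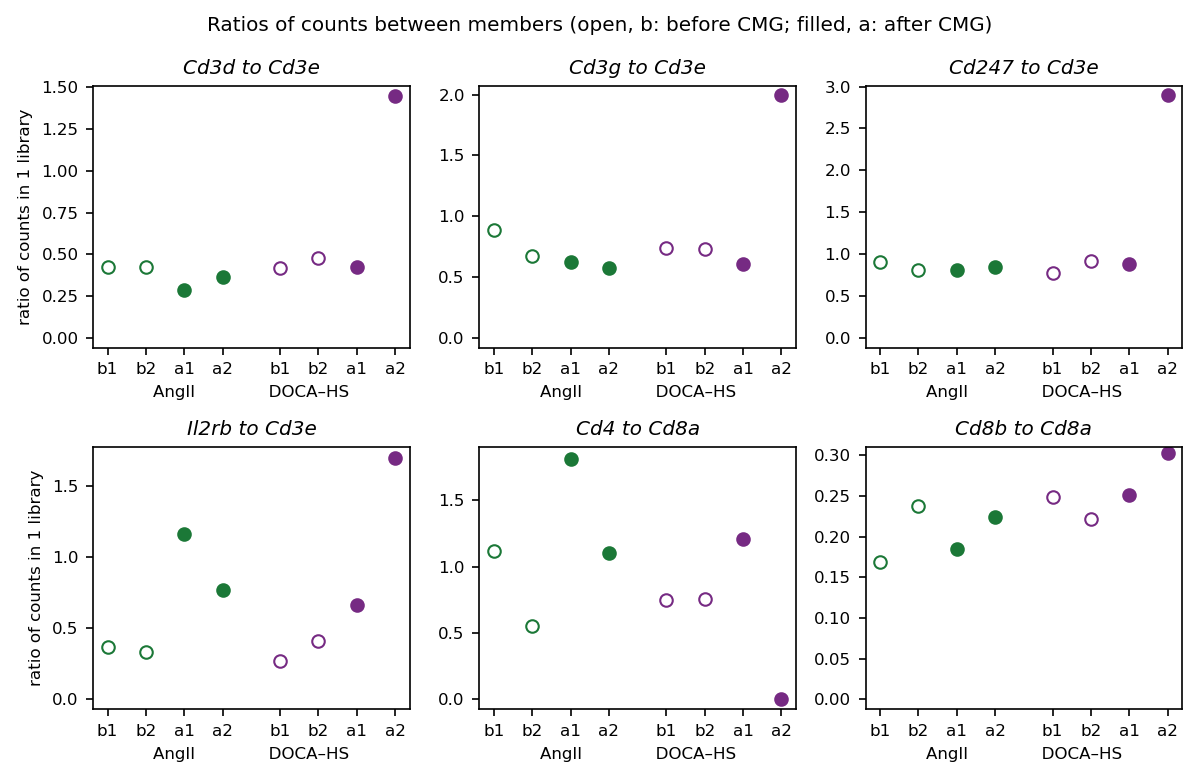
Ratio of the counts of 2 members within each library (vertical axis, linear), with open points before (b1, b2) and filled points after CMG (a1, a2), for the AngII and the DOCA–HS model. The 3 upper panels are highest in DOCA–HS after replicate 2, at 1.45, 2 and 2.9, Cd3g to Cd3e is lower in the 3 other after libraries (0.577 to 0.622) than before CMG (0.674 to 0.889), and Il2rb to Cd3e is higher in the 4 after libraries (0.663 to 1.70) than in the before libraries (0.272 to 0.410).

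The co-receptors CD4 and CD8 bind the presenting molecules and bring Lck to the receptor, and CD4 is also carried by monocytes in the rat. Cd8a was at 24.3 and 26.4 normalized CPM before and at 19.0 and 24.997 after CMG under AngII, and at 37.4 and 28.3 before and 27.8 and 23.2 after CMG under DOCA–HS. Its groups overlapped under AngII and were barely apart under DOCA–HS. The log2 fold change of Cd8a was −0.27 in the average change (standard error 0.25, unadjusted p = 0.295, edgeR). Cd8b was between 3.52 and 9.31 normalized CPM, and the ratio of Cd8b to Cd8a was between 0.168 and 0.303 in the 8 libraries.

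Cd4 was at 27.1 and 14.5 normalized CPM before and at 34.4 and 27.7 after CMG under AngII, a log2 fold change of 0.58 (standard error 0.38, unadjusted p = 0.168, edgeR). Under DOCA–HS it was at 27.9 and 21.4 before and at 33.7 after CMG in replicate 1, while replicate 2 had 0 counts. Cd4 was thus higher in 3 after libraries than in both before libraries of the same model, and without a count in DOCA–HS after replicate 2. In replicate 2 it was at least 16.0-fold lower than in replicate 1, and Rasgrp1 at least 7.03-fold lower, with 3 counts as the limit in that library. The ratio of Cd4 to Cd8a was 1.12 and 0.551 before and 1.81 and 1.11 after CMG under AngII, and 0.747 and 0.756 before and 1.21 and 0 after CMG under DOCA–HS. The count of 0 allows a ratio of up to 0.118 (exact binomial, counting error only). Over 12 monocyte genes in the counts, the summed level was 432 and 412 normalized CPM before and 539 and 531 after CMG under AngII, and 461 and 702 before and 670 and 409 after CMG under DOCA–HS. Of these genes, Cd163 had 0 counts in all 8 libraries, Ms4a7 in 5 and Cd14 in DOCA–HS after replicate 2. The part of monocytes in the level of Cd4 was not tested.

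The costimulatory and inhibitory receptors had medians of −0.48 under AngII, −1.10 under DOCA–HS and −0.85 in the average change, the last 2 the lowest of the roles. Leaving out DOCA–HS after replicate 2 gave −0.82 under DOCA–HS and −0.70 in the average change. Ctla4, Icos and Cd28 are neighbours in the genome, and CTLA4 is the inhibitory receptor that competes with CD28 for its ligands. Ctla4 had few counts, 18 and 7 before and 2 and 2 after CMG under AngII, and 13 and 1 before and 3 and 0 after CMG under DOCA–HS. The after libraries were below the before libraries under AngII and overlapped under DOCA–HS. With 4 counts after against 25 before CMG, the ratio of levels under AngII was 0.151 (95% interval of counting error 0.0382 to 0.437). With 3 against 14 counts under DOCA–HS it was 0.408 (0.0752 to 1.46). Too few counts kept Ctla4 out of the fits of single models, and it fell in the average change by a log2 fold change of −2.04 (standard error 0.70, unadjusted p = 0.0139, adjusted p = 0.9996, edgeR), an estimate that rests on these few counts. Its p-value was up to 0.0688 with 1 library left out, and the call was lost without AngII before replicate 1, AngII after replicate 2 or DOCA–HS before replicate 1.

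Icos, an inducible relative of CD28 on activated T cells, was at 3.46 and 2.87 normalized CPM before and at 1.28 and 2.96 after CMG under AngII, and at 2.88 and 2.87 before and 1.08 and 0.703 after CMG under DOCA–HS. The 2 groups overlapped under AngII and were apart under DOCA–HS. Icos fell under DOCA–HS by a log2 fold change of −1.50 (standard error 0.57, unadjusted p = 0.0283, adjusted p = 0.997, edgeR), just short of the fold threshold, and in the average change by −0.91 (standard error 0.36, unadjusted p = 0.0266, edgeR). Without DOCA–HS after replicate 2, the value in that model was −1.40 (unadjusted p = 0.00746, edgeR), and without after replicate 1 it was −2.01 (unadjusted p = 0.0763, edgeR). Cd27, a costimulatory receptor of naive and memory T cells, was at 27.7 and 30.6 before and at 14.7 and 26.3 after CMG under AngII. Under DOCA–HS it was at 32.6 and 27.0 before and at 19.1 and 7.03 after CMG. On the TMM scale, its 4 after libraries lay below its 4 before libraries. Cd27 fell in the average change by a log2 fold change of −0.79 (standard error 0.34, unadjusted p = 0.0396, edgeR), and without DOCA–HS after replicate 2 by −0.56 (unadjusted p = 0.0372, edgeR). Its change under DOCA–HS was −1.10 (unadjusted p = 0.0734, edgeR), with −0.63 without after replicate 2 (unadjusted p = 0.0634, edgeR) and −2.08 without after replicate 1 (unadjusted p = 0.000542, edgeR). Per library totals, the log2 fold change of Cd27 was −0.82 in the average change (unadjusted p = 0.23, edgeR). Under AngII it was −0.03 on that scaling (unadjusted p = 0.947, edgeR), where all genes lay at 0.36. Cd28, the main costimulatory receptor, was between 0 and 3.52 normalized CPM, and its log2 fold change was 0.05 in the average change.

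**Figure D4:**
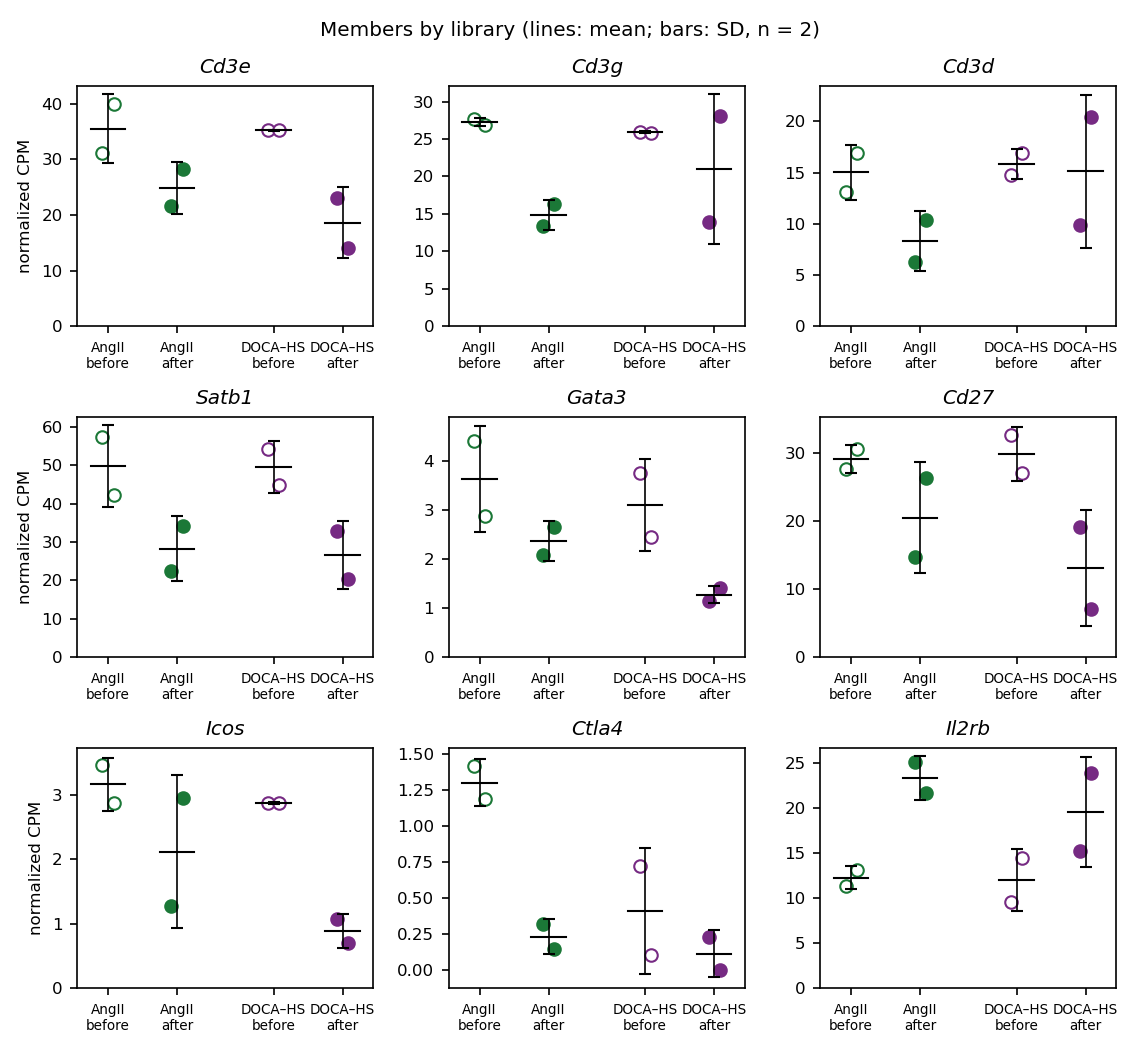
Normalized CPM (vertical axes) of 9 members in each library, by group, with open points before and filled points after CMG; lines are means and bars SDs of 2 libraries. Cd3e, Satb1 and Cd27 lie lower in every after library, Il2rb lies higher, and the after libraries of the DOCA–HS model are far apart for Cd3g (13.9 and 28.1) and Cd3d (9.84 and 20.4).

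Of the cytokine receptor chains, Il2rb went the other way from most members. This chain is high on natural killer cells and on memory and cytotoxic T cells. It was at 11.4 and 13.2 normalized CPM before and at 25.1 and 21.7 after CMG under AngII, and at 9.58 and 14.4 before and 15.3 and 23.9 after CMG under DOCA–HS. Each after library lay above each before library. Il2rb rose under AngII by a log2 fold change of 0.95 (standard error 0.30, unadjusted p = 0.0122, adjusted p = 0.628, edgeR) and in the average change by 0.80 (standard error 0.27, unadjusted p = 0.0115, adjusted p = 0.9996, edgeR). With 1 library left out, its p-value in the average change was 0.0092 to 0.0496 (edgeR). Under DOCA–HS the log2 fold change was 0.68 (unadjusted p = 0.19, edgeR), without after replicate 2 it was 0.37 (unadjusted p = 0.243, edgeR) and without after replicate 1 it was 1.00 (unadjusted p = 0.0226, edgeR), and per library totals it was −0.19, where all genes lay at −0.76. Relative to Cd3e, Il2rb had a count ratio of 0.366, 0.331, 0.272 and 0.410 in the 4 before libraries and of 1.16, 0.769, 0.663 and 1.70 in the 4 after libraries, so that the ratio was higher after CMG under any scaling. Il2rg, the common gamma chain, and Il27ra had log2 fold changes of −0.26 and 0.00 in the average change, and Il2rg was at 38.0 and 12.7 normalized CPM in the DOCA–HS libraries after CMG.

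Markers of cytotoxic lymphocytes, which cover natural killer cells and cytotoxic T cells, moved with Il2rb. Their summed level over 16 genes was 136 and 128 normalized CPM before and 237 and 179 after CMG under AngII, and 108 and 139 before and 169 and 228 after CMG under DOCA–HS. Each after library was above each before library on this scale. As CPM of the total counts, the list was at 131 and 98.97 before and 218 and 243 after CMG under AngII, and at 202 and 160 before and 243 and 78.1 after CMG under DOCA–HS. On that scale DOCA–HS after replicate 2 went from the highest to the lowest of its model, and as CPM of the counts outside hemoglobin, at 497, it was also below both before libraries (529 and 552). In the average change, 6 of the 13 tested rose (Ccl5, Fcgr3a, Gzma, Gzmk, Nkg7 and Prf1) and 0 fell, where 2.28% of all genes rose and 1.63% fell. The median log2 fold change was 0.61. This count was made on the TMM scale only. The DOCA–HS median was 0.60, or 0.36 with after replicate 2 left out. Of the 16, Klrb1 was at 0 counts in 7 libraries and Klrc1 in AngII before replicate 1 and DOCA–HS after replicate 2, while the others had counts in each library. The part of these cells in the level of Il2rb was not tested.

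Adhesion and scavenger receptors, which steady the contact with other cells or damp the signal, had a median log2 fold change of −0.37 in the average change, with all 4 below 0. Without DOCA–HS after replicate 2 the median was also −0.37, and Cd2 and Cd6 were among the members that fell. Cd6, a scavenger receptor that binds adhesion molecules, was at 14.8 and 19.8 normalized CPM before and at 11.04 and 15.8 after CMG under AngII, and at 18.7 and 18.5 before and 10.9 and 16.9 after CMG under DOCA–HS. The groups overlapped under AngII. The log2 fold change of Cd6 was −0.41 in the average change (standard error 0.26, unadjusted p = 0.143, edgeR). Those of Cd2, Cd5 and Cd96 were −0.39, −0.36 and −0.27, and Cd5, which lies beside Cd6 in the genome, had at most 1.38 normalized CPM.

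Adaptors and regulators of proximal signalling had a median log2 fold change of 0.11 under AngII, −0.32 under DOCA–HS and −0.24 in the average change, and 0 of 8 passed at an unadjusted p of 0.05. Without DOCA–HS after replicate 2 the medians were −0.42 under DOCA–HS and −0.07 in the average change, where Lat and Skap1 were among the members that fell. Skap1, an adaptor that links the receptor to integrin adhesion, was at 17.4 and 20.8 normalized CPM before and at 14.7 and 16.0 after CMG under AngII, and at 21.3 and 21.6 before and 14.1 and 17.6 after CMG under DOCA–HS. The after libraries were below the before libraries of the same model in both. Its log2 fold change was −0.38 in the average change (standard error 0.23, unadjusted p = 0.128, edgeR). Lat, the scaffold of the signalling complex, and Grap2 and Lcp2, its partners, had log2 fold changes of −0.34, −0.32 and 0.13. Trat1, Ubash3a, Sit1 and Sh2d1a lay between −0.26 and 0.07.

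The kinases and second messenger enzymes stood near 0, with medians of 0.09, −0.03 and −0.05 under AngII, the DOCA–HS model and the average change, and of −0.09 and −0.01 in the last 2 without DOCA–HS after replicate 2. Txk, a kinase of the Tec family that T cells and natural killer cells express, was at 3.69 and 5.91 normalized CPM before and at 7.36 and 7.84 after CMG under AngII, and at 7.26 and 6.80 before and 6.77 and 7.03 after CMG under DOCA–HS. On this scale Txk was lowest in the AngII libraries before CMG and between 6.77 and 7.84 in the other 6. These levels rest on few counts, 47 and 35 in the AngII libraries before CMG and 10 in DOCA–HS after replicate 2. The log2 fold change was 0.72 under AngII (standard error 0.32, unadjusted p = 0.0556, edgeR) and 0.34 in the average change (standard error 0.26, unadjusted p = 0.224, edgeR). Prkcq, the protein kinase C of the T cell synapse, which platelets also contain, was at 38.1 and 18.6 before and at 28.8 and 16.9 after CMG under AngII, and at 26.7 and 31.2 before and 35.1 and 42.9 after CMG under DOCA–HS. The summed level of 7 platelet genes had the same order of libraries within each model, with 802 and 228 before and 691 and 74.6 after CMG under AngII and 280 and 421 before and 788 and 1304 after CMG under DOCA–HS. Gp1bb, 1 of the 7, had 0 counts in each library. The part of platelets in Prkcq was not tested. Rasgrp1, Camk4 and Dgka had log2 fold changes of −0.30, −0.05 and −0.35 in the average change.

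The transcription factors had log2 fold changes below 0 in all 5 members tested in both models, with medians of −0.39, −0.97 and −0.60 under AngII, the DOCA–HS model and the average change. With DOCA–HS after replicate 2 left out, the last 2 were −0.60 and −0.49. Satb1, a chromatin organiser of developing and naive T cells, was at 57.3 and 42.2 normalized CPM before and at 22.4 and 34.2 after CMG under AngII. Under DOCA–HS it was at 54.3 and 44.8 before and at 32.8 and 20.4 after CMG. The 4 after libraries lay below the 4 before libraries. Satb1 fell in the average change by a log2 fold change of −0.84 (standard error 0.29, unadjusted p = 0.0137, adjusted p = 0.9996, edgeR), with −0.80 under AngII and −0.87 under DOCA–HS, where it was −0.58 without after replicate 2. Without DOCA–HS after replicate 2 the average was −0.73 (unadjusted p = 0.0097, edgeR), and per library totals it was −0.94 (unadjusted p = 0.117, edgeR).

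Gata3, the factor of T cell development and of type 2 helper cells, was at 4.40 and 2.87 normalized CPM before and at 2.08 and 2.66 after CMG under AngII, and at 3.77 and 2.44 before and 1.15 and 1.41 after CMG under DOCA–HS. In each model the after libraries were below the before libraries. Gata3 fell under DOCA–HS by a log2 fold change of −1.38 (standard error 0.57, unadjusted p = 0.0393, adjusted p = 0.997, edgeR) and in the average change by −0.94 (standard error 0.32, unadjusted p = 0.014, adjusted p = 0.9996, edgeR). The value under DOCA–HS was −1.44 without after replicate 2 (unadjusted p = 0.00402, edgeR) and −1.17 without after replicate 1 (unadjusted p = 0.213, edgeR). Lef1, a factor of naive T cells, Bcl11b, which holds T cell identity, and Ets1 had log2 fold changes of −0.53, −0.31 and −0.60 in the average change. Lef1 was at 12.2 and 12.004 before and at 7.53 and 3.52 after CMG under DOCA–HS, and Ets1 at 208 and 146 before and 128 and 52.0 after CMG, so that the groups were apart for both, while they overlapped under AngII. The log2 fold change of Lef1 was −0.99 (unadjusted p = 0.0747, edgeR) and that of Ets1 −0.97 (unadjusted p = 0.152, edgeR) under DOCA–HS. Without after replicate 2 they were −0.67 (unadjusted p = 0.0485, edgeR) and −0.46 (unadjusted p = 0.299, edgeR), and in the average change −0.36 and −0.33.

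To set T cells apart from cells that share some of these genes, 14 members in the counts are largely restricted to T cells: Cd3d, Cd3e, Cd3g, Cd5, Cd6, Cd28, Cd8b, Trat1, Ubash3a, Lef1, Bcl11b, Icos, Ctla4 and Camk4. Their summed level was 138 and 149 normalized CPM before and 92.5 and 116 after CMG under AngII, and 158 and 148 before and 100 and 117 after CMG under DOCA–HS. All 4 after libraries were below all 4 before libraries. As CPM of the total counts, the AngII groups overlapped, at 133 and 116 before and 85.0 and 157 after CMG, and the DOCA–HS groups did not, at 297 and 170 before and 144 and 40.0 after CMG. In the average change, 13 of the 14 had log2 fold changes below 0, with a median of −0.38, and 3 fell, against a median of −0.42 and 7 that fell without DOCA–HS after replicate 2. Over all genes, 1.63% fell in the average change, and 4.24% without that library. The median of the 22 other members was −0.27, with 15 below 0, and without that library it was −0.13, with 13 below 0.

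Of 40 other genes of T cell receptor signalling, 36 were in the counts. In the average change 35 were tested, 0 passed in either direction at an unadjusted p of 0.05, and the median log2 fold change was −0.07, with 24 below 0. Over all genes, 2.28% rose and 1.63% fell in that fit. Under AngII 1 of 34 rose, Nck1, and 0 fell, against 5.04% and 1.61% of all genes. Under DOCA–HS 0 of 35 passed, where 2.73% of all genes rose and 0.44% fell. The DOCA–HS median was −0.27, or 0.01 without after replicate 2, and the median in the average change was then −0.04. The smallest p-values in the average change were those of Rhoh (log2 fold change −0.62, unadjusted p = 0.0547), a GTPase needed for receptor signalling, Lck (−0.55, unadjusted p = 0.0746) and the phosphatase Ptpn22 (−0.55, unadjusted p = 0.0836, all edgeR). Of 16 genes of T cell subsets, 13 were in the counts and 10 were tested. Tbx21, the factor of type 1 helper and cytotoxic cells, rose in the average change by a log2 fold change of 1.81 (standard error 0.43, unadjusted p = 0.00154, adjusted p = 0.896, edgeR). It was 1 of 10 that rose, against 2.28% of all genes, and 0 fell, against 1.63%. The median was −0.12, or 0.01 without DOCA–HS after replicate 2. Foxp3, the factor of regulatory T cells, and Cd40lg had log2 fold changes of −0.57 (unadjusted p = 0.19, edgeR) and −0.40 (unadjusted p = 0.16, edgeR). Under AngII Tbx21 and Cxcr5 rose, 2 of 10, against 5.04% of all genes.

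Markers of other blood cells gave the setting of these values. The median log2 fold change in the average change was −0.26 for 15 B cell genes, 0.49 for 10 monocyte genes, of which 3 rose, −0.12 for 12 neutrophil genes, −0.12 for 11 erythroid genes and 0.47 for 6 platelet genes. Of all genes, 2.28% rose in that fit. Under DOCA–HS the B cell median was −0.89, the erythroid median 0.44 and the platelet median 1.34, while under AngII they were 0.35, −0.49 and −0.33. With DOCA–HS after replicate 2 left out, the DOCA–HS medians were −0.61 for B cell genes, 1.06 for platelet genes and −0.28 for erythroid genes, so that the erythroid median changed its sign. In the average change they were then −0.05 for B cell, 0.63 for monocyte, −0.46 for neutrophil, −0.40 for erythroid and 0.26 for platelet genes. The parts of these cells in the levels of the members were not tested.

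**Figure D5:**
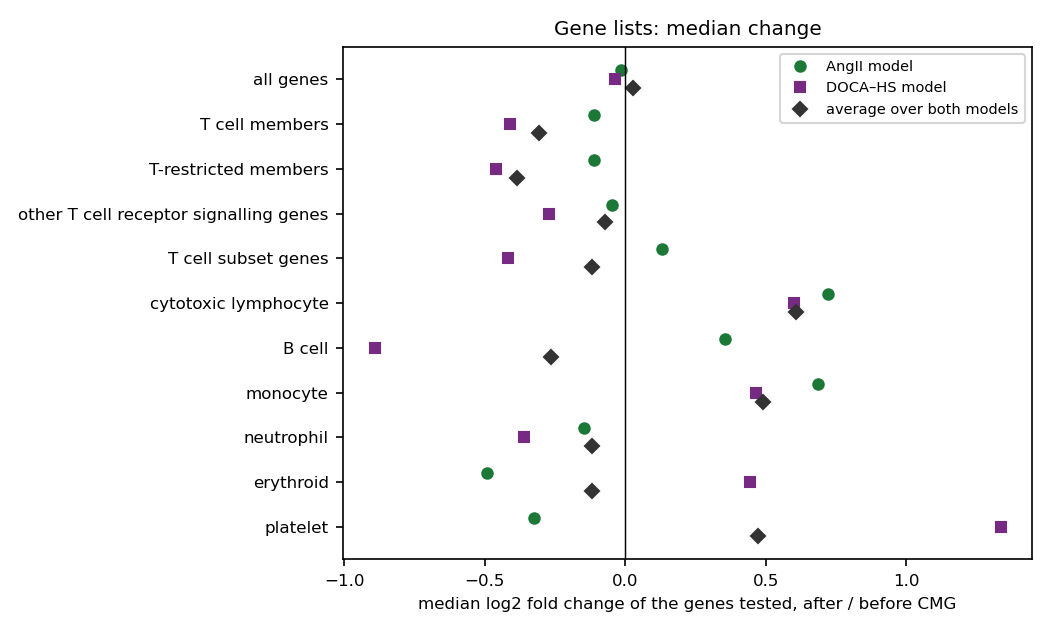
Median log2 fold change after against before CMG (horizontal axis) of the genes tested in each list (rows), for the AngII model (circles), the DOCA–HS model (squares) and the average over both (diamonds). The members lie at −0.11, −0.41 and −0.31, the cytotoxic lymphocyte list lies above 0 in both models, and the B cell, erythroid and platelet lists lie on different sides of 0 in the models, the erythroid list through DOCA–HS after replicate 2, without which it is at −0.28 under DOCA–HS.

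The models were then compared with each other. In 1 fit over all 8 libraries, the change after CMG differed between the models by a median log2 difference of −0.30 over the 36 members, DOCA–HS minus AngII, against −0.12 over all genes. By the criterion 0 members were called, against 3.16% of all genes, and 0 had an unadjusted p of 0.05 or less, against 3.74%. Without DOCA–HS after replicate 2 the median difference was −0.19. Among the members, the interval around a difference stayed wide, as for Cd3e, whose difference was −0.38 with a standard error of 0.56. Before CMG, the median log2 ratio of DOCA–HS to AngII was 0.13 against 0.06 over all genes, with 0 members called against 0.838% of all genes and 0 at an unadjusted p of 0.05 or less, against 3.38% (edgeR). There, limma-voom called 1 member, Ctla4, 2.78% against 0.951% of all genes. After CMG the median log2 ratio was −0.18 against −0.04, with 0 called against 1.4% and 0 at the unadjusted threshold against 2.79%. The model, the week of sampling, the length of the hypertensive treatment and the age of the rats cannot be told apart in these comparisons. Before CMG, 12 of 36 members lay higher in both DOCA–HS libraries than in both AngII libraries, 33.3% against 24.3% of all genes, among them Cd8a and Cd8b, and 3 lay lower (Cd3g, Ctla4 and Grap2), 8.33% against 21.2%.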

How the data were processed

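RNA of whole blood was sequenced in 8 libraries. The authors aligned single-end reads to the rn6 rat genome with HISAT2, counted them on genes by strand with HTSeq and deposited raw counts per gene, without normalization. Their methods state that hemoglobin annotations were removed, yet Hbb and LOC100134871 remain. Blood was taken by cardiac puncture with heparin per the labels.

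Here, edgeR 4.0.16 (filterByExpr, TMM, quasi-likelihood test, R 4.3.3) was run on all genes, with each model alone, with 4 group means over all 8 libraries, and with the model as a covariate. Log2 CPM used a prior count of 2. Totals of 4149104 to 13205565 counts limit low genes, and a floor of 3 counts and all intervals cover counting error only. Promoters were taken from RefSeq (GRCr8), since no genome of rn6 was used. The computation was tested on simulated data. Every member was described, in full where it was called, passed at an unadjusted p-value of 0.05 or led its role. The members and lists were chosen with earlier results of these data known. Alternatives were DESeq2 1.42.0, limma-voom (limma 3.58.1), other scalings and filters, other thresholds, the replicate block and leaving out each library. Leaving DOCA–HS after replicate 2 out of the list medians and of the counts of genes without overlap was added after the data were seen.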

Additional observations from a re-analysis of the deposited data

How the results depend on the processing

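No named gene changed sign, under any alternative, in a comparison where it had passed, but many passes at an unadjusted p of 0.05 were lost: in 13 of 27 alternatives for Icos, 11 of 27 for Gata3, 7 of 13 for Cd3d, 5 of 13 for Cd3g, 7 of 16 each for Cd27 and Cd3e, 3 of 16 for Satb1, 3 of 15 for Ctla4 and 4 of 29 for Il2rb, over the comparisons where each had passed. The members' median log2 fold change moved beyond the spread between replicates (0.227) per library totals, to 0.24, above 0, in the AngII model, −1.14 in the DOCA–HS model, −1.44 for the difference between the models, 0.93 between the models before CMG and −0.47 after it. Per totals outside hemoglobin it was 0.27, −0.82, −1.11 and 0.85 in the first 4 of these, and the difference between the models was −0.68 where every library had to hold 10 counts. Without a filter, 1 member was called for AngII (Ctla4) and 1 for DOCA–HS (Icos), 2.78% each against 1.8% and 2.39% of all genes. With all 8 libraries in 1 fit, Ctla4 was called in the AngII model, 2.78% against 1.31%. Between the models before CMG, limma-voom called 1 member, 2.78% against 0.951%. In the average change 0 were called where every library had to hold 10 counts or at an adjusted p-value under 0.05. Without a fold threshold the number called was 3, 2 and 7 in the AngII model, the DOCA–HS model and the average change. The shares of all genes by direction are given above. With 1 library left out, the number called was 0 to 2 in the AngII model and 0 to 9 in the DOCA–HS model, with 9 where after replicate 1 was left out, so that after replicate 2 stood alone. There 25.7% of the members and 21.1% of all genes were called. It was 0 to 9 for the difference between the models, 0 to 1 in the average change, 0 to 1 between the models before CMG and 0 to 7 after it, with the highest for the difference and after CMG again without DOCA–HS after replicate 1, where 25% of the members against 23.2% of all genes and 19.4% against 18.1% were called. The medians ranged from −0.39 to −0.041, −0.55 to −0.39, −0.64 to −0.13, −0.37 to −0.22, 0.11 to 0.16 and −0.62 to −0.080 in the same order. A group left with a single library was assumed to vary like the others. For that reason, no conclusion about the members is drawn from the numbers called with 1 library left out.

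The labels do not say what a shared replicate number means. The differences between replicates 1 and 2 before and after CMG correlated at 0.41 for AngII and 0.31 for DOCA–HS over 7994 genes, with 2 pairs each. This does not settle whether the libraries were paired. The paper describes blood sampling of its rats at both time points, but no label names libraries of the same rat. The libraries were therefore taken as unpaired in the main fits, with the block as an alternative. With the replicate number as a block, 0, 0, 1, 1, 0 and 0 members were called in the same order. Of all genes, 1.46%, 1.83%, 5.68%, 0.425%, 0.876% and 1.44% were called in that order. The members called were Cd4 for the difference between the models and Ctla4 in the average change, each 2.78% of the members. The medians with the block were −0.19, −0.47, −0.33, −0.36, 0.15 and −0.27. Under DOCA–HS the block gave p-values of 0.0652 for Icos and 0.0719 for Gata3 (edgeR), and the 2 members at an unadjusted p of 0.05 or less were Cd27 (0.0294) and Rasgrp1. The block gave 165 genes with an adjusted p-value under 0.05 in the AngII model, 0 of them members. Depth limits Ctla4, Icos, Gata3, Cd5 and Cd28, and every member in DOCA–HS after replicate 2.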
